A study of Mus musculus with 28 samples.

Results

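The ventral striatum of mice labelled *Hdc* KO was compared with that of mice labelled *Hdc* heterozygous. The members were the 5 libraries that the labels place in this region and these genotypes, KO 7 and KO 8 against heterozygous 4, 5 and 6, out of 28 libraries in the series, and the 13400 of 29878 listed genes above 1 CPM (counts scaled to a common library size) in at least 2 of these 5 libraries. Genes for which both KO libraries lay outside the range of the 3 heterozygous libraries were counted separately.

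The series holds RNA-seq counts from 4 brain regions of 8 adult male mice, 2 to 3 months old, on a C57Bl/6 background after repeated backcrossing. WT mice carried no mutant *Hdc* allele, heterozygous mice carried 1 and KO mice carried 2, and the labels name no treatment. The allele was carried from conception in every tissue, and a backcrossed line can keep donor sequence on the chromosome that carries the allele. The digit in a library name was taken as the mouse. Regions with the same digit then come from 1 mouse and are not independent, while the main fit treats all 28 libraries as independent. The labels do not state litters or dissection dates, so p-values measure only the spread between these samples.

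*Hdc* encodes histidine decarboxylase, the enzyme that makes histamine from histidine. Histamine neurons have their cell bodies in the posterior hypothalamus and send axons to most of the forebrain, and the striatum holds histamine receptors on spiny projection neurons and on incoming axons. The ventral striatum, which includes the nucleus accumbens and olfactory tubercle, consists mostly of spiny neurons, which carry dopamine D1 or D2 receptors. Immediate early genes are transcribed within minutes of neuronal activity, and many of them respond to cAMP and calcium signals through the factor CREB.

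The 5 libraries held between 3714890 and 5064759 counts on genes, with a median of 4177055, which sets how few reads stand behind a low CPM. Spiny neuron markers were read in all 5, with *Penk*, the enkephalin precursor of D2 neurons, at 974.7 CPM or more in the heterozygous libraries and at 1379 and 599 CPM in KO 7 and KO 8. Whether the tissue was ventral or dorsal striatum was not checked with these markers. The 2 KO libraries differed from each other more than the heterozygous libraries did. A chi-square test of counts over genes gave 12.8 per degree of freedom for KO 7 against KO 8, and 2.07 to 4.82 for heterozygous pairs.

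Counts of *Hdc* (GRCm38 chromosome 2, minus strand, 126593667 to 126619299) were higher in the libraries labelled KO. There were 28, 20 and 23 reads in the heterozygous libraries, 49 and 51 in KO 7 and KO 8, and 1, 6 and 0 in the 3 WT libraries of the same region. Both KO libraries were above every heterozygous library, and every heterozygous library was above every WT library. In CPM the levels were 5.34 ± 0.149 (SD, n = 3) in heterozygous and 12.2 ± 0.969 (SD, n = 2) in KO libraries, and the fitted log2 fold change was 1.19 (SE 0.27), with an adjusted p of 0.0176 in the likelihood ratio test of edgeR, which gives every adjusted p below unless another tool is named. A loss of transcript would lower this count. The counts cover all exons together and do not show which part of the gene was read, and the part that the allele lacks is not given in the sources used here, so the count does not check the genotype. KO and heterozygous name libraries by their labels throughout.

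In the other regions, *Hdc* was at 9.23 and 8.19 CPM in KO 7 and KO 8 of the dorsal striatum, against 4.16 to 6.75 CPM in heterozygous libraries. In the motor cortex it was at 10.1 and 7.87 CPM, against 4.85 and 5.43 CPM. The hypothalamus, where histamine neurons lie, went the other way, with 11.8 and 14.2 CPM in KO and 14.7 to 21.8 CPM in heterozygous libraries. None of these 3 differences was called. Among all genes, 0.47% were called between KO and heterozygous in the dorsal striatum, 0.216% in the hypothalamus and 0.00746% in the motor cortex.

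Of the 13400 genes, 7 passed an adjusted p of 0.05 (0.0522%), 6 higher (0.0448%) and 1 lower (0.00746%) in KO. At an unadjusted p under 0.05 there were 443 genes (3.31%), 228 higher (1.7%) and 215 lower (1.6%). For 4 of the 7, *Hdc*, *Pla2g4e*, *Gpr50* and *Arc*, both KO libraries lay outside the heterozygous range. For the other 3, *Pmp22* and *Col1a1* among them, the difference rested on KO 8. Without KO 8 none of the 7 was called, and without any 1 of the heterozygous libraries *Pla2g4e* was still called while *Hdc*, *Gpr50*, *Arc*, *Pmp22* and *Col1a1* were not. None of these 6 passed with the quasi-likelihood test of edgeR, where the adjusted p was 0.0507 for *Pla2g4e*, 0.679 for *Hdc*, 0.758 for *Gpr50* and 0.569 for *Arc*.

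**Figure D1:**
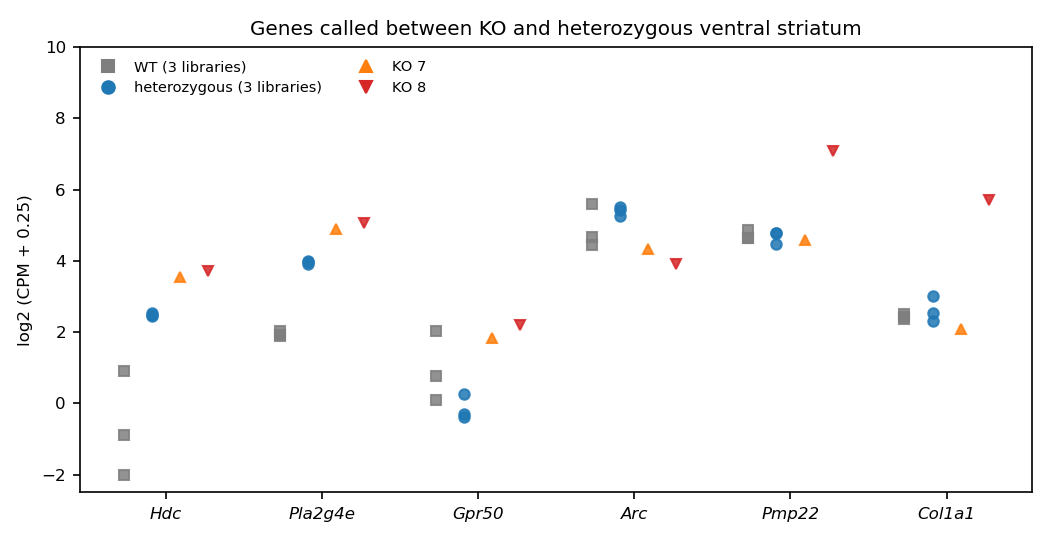
The level of 6 called genes in ventral striatum, as log2 of CPM plus 0.25, with 1 symbol per library (grey squares WT, blue circles heterozygous, orange upward triangle KO 7, red downward triangle KO 8). KO 7 and KO 8 lie together outside the heterozygous libraries for *Hdc*, *Pla2g4e*, *Gpr50* and *Arc*, and KO 8 lies alone for *Pmp22* and *Col1a1*.

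*Pla2g4e*, a cytosolic phospholipase A2 that acts on membrane lipids, lies on chromosome 2 from 120166412 to 120245335, at 6.35 Mb from *Hdc*. Its level was 15.8, 15.4 and 14.8 CPM in heterozygous libraries and 29.2 and 33.1 CPM in KO 7 and KO 8. The 3 WT libraries had 3.47 to 3.85 CPM, so the 3 genotypes did not overlap. The log2 fold change of KO over heterozygous was 1.02 (SE 0.19, edgeR adjusted p = 0.000914). The quasi-likelihood test of edgeR gave an adjusted p of 0.0507, and the adjusted p was 0.197 without KO 8. Heterozygous over WT gave 2.08 on the log2 scale (edgeR adjusted p = 4.19e-12), a comparison that uses the same heterozygous libraries and in which 0.0597% of genes were called. KO over WT, which shares the KO libraries, gave 3.10 (edgeR adjusted p = 2.13e-31), where 0.0896% of genes were called. The log2 fold change of KO over heterozygous was 0.92 in the dorsal striatum (edgeR adjusted p = 0.00321), 0.83 in the hypothalamus (edgeR adjusted p = 0.00421) and 0.74 in the motor cortex (edgeR adjusted p = 0.309).

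Around *Hdc*, 184 other tested genes lay within 10 Mb. Both KO libraries were outside the heterozygous range on the same side for 46 of them (25.0%), 22 above and 24 below, against 2290 of all 13400 genes (17.1%). Of the 184, *Pla2g4e* alone was called, and 13 others had an unadjusted p under 0.05, where 0.0522% and 3.31% of all genes did so. *Ivd*, which encodes a mitochondrial enzyme of leucine breakdown, was at 25.5, 23.0 and 23.2 CPM in heterozygous libraries and at 14.6 and 17.7 CPM in KO 7 and KO 8 (log2 fold change -0.57, SE 0.17, edgeR adjusted p = 0.417). *Ehd4*, an endosomal trafficking protein gene near *Pla2g4e*, was at 12.8, 14.4 and 12.2 CPM in heterozygous and at 15.1 and 22.3 CPM in KO libraries (0.50, SE 0.20, edgeR adjusted p = 1.00). This window was defined after values had been seen. How far donor sequence extends from the allele in these mice was not tested, nor was its part in these levels.

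*Gpr50*, an X-linked receptor related to melatonin receptors, had 3, 2 and 4 reads in heterozygous libraries and 14 and 17 in KO 7 and KO 8. The WT libraries had 5, 3 and 15 reads, so the KO libraries did not stand apart from WT. Its log2 fold change over heterozygous was 2.44 (SE 0.60, edgeR adjusted p = 0.0176). In the hypothalamus, where it was at 21.3 to 41.8 CPM in heterozygous and 25.6 CPM in both KO libraries, the log2 fold change was -0.24 (edgeR adjusted p = 0.999).

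*Arc*, an immediate early gene whose protein acts in synaptic plasticity, was the called gene that was lower in KO. It was at 42.8, 45.5 and 37.8 CPM in heterozygous libraries and at 20.0 and 14.9 CPM in KO 7 and KO 8. The WT libraries were at 21.4, 48.5 and 25.2 CPM, and 2 of them were closer to KO than to heterozygous. The log2 fold change of KO over heterozygous was -1.26 (SE 0.28, edgeR adjusted p = 0.0300, and 0.544 without KO 8), and that of KO over WT was -0.86 (edgeR adjusted p = 0.570). The KO over heterozygous difference was -1.64 in the dorsal striatum (edgeR adjusted p = 3.19e-05) and -1.38 in the motor cortex (edgeR adjusted p = 0.0197), and it was 0.26 in the hypothalamus (edgeR adjusted p = 0.999).

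The promoters of 4 other genes of the same kind are shown as examples. All 4 lay below the heterozygous range in both KO libraries. They also hold the letters TGACG, the core of the cAMP response element that CREB binds. *Npas4*, *Dusp1* and *Egr2* met both conditions too and are not printed. *Egr4*, *Junb* and *Nr4a3* also hold the core, but for them KO 7 lay inside the heterozygous range. Genes picked on both conditions cannot show whether the core goes with lower levels. The sequences run from 250 to 11 bases before the transcription start in RefSeq (GRCm38.p6), 5′ to 3′ on the gene's strand. Capitals mark this core, read as TGACG on this strand or CGTCA on the other.
Fos, chr12:85473640-85473879, plus strand: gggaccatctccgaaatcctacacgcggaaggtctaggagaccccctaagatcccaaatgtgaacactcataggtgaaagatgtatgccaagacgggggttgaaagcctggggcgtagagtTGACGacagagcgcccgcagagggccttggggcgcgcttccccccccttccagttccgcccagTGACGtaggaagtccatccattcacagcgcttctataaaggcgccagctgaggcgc
Fosb, chr7:19310056-19310295, minus strand: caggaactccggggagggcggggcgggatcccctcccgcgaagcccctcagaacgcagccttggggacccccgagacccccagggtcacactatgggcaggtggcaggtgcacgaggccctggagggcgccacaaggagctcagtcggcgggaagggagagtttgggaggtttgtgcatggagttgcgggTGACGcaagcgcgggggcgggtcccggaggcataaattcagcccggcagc
Nr4a1, chr15:101266596-101266835, plus strand: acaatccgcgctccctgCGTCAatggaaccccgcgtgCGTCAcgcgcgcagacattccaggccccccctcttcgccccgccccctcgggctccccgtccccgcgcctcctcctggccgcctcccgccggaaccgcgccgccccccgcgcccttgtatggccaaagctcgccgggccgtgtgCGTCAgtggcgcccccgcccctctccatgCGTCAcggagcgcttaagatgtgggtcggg
Btg2, chr1:134079166-134079405, minus strand: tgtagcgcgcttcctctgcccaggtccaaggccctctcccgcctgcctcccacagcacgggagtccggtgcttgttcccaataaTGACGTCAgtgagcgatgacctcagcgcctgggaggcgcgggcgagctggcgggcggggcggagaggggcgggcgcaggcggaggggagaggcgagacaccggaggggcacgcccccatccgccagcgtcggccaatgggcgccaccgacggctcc
In *Btg2* the cores of both strands overlap to form the full element, which begins 166 bases before the start. *Fos* has cores beginning 129 and 66 bases before it, *Fosb* 60, and *Nr4a1* has 4 of them. Over windows from 250 bases before to 50 bases after the start, 10 of 12 matched genes of the immediate early list held the core (83.3%), against 3639 of 10360 matched genes tested (35.1%) and 6228 of 27025 genes in the table (23.0%). The full element was in 2 of the 12, *Btg2* and *Dusp1*. A match describes the letters and shows no binding.

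The immediate early list was lower as a whole in KO. All 15 tested genes had a negative log2 fold change, with a median of -0.86 against 0.007 for all genes, and both KO libraries lay below the heterozygous range for 9 of the 15 (60.0%), against 8.80% of all genes. There was 1 call, *Arc*, where 0.00746% of all genes were called lower, and 5 genes were lower at an unadjusted p under 0.05, against 1.6% of all genes, so most members did not pass on their own. Without KO 8 the median was -0.77 and 14 of 15 were lower. The list holds *Nr4a1* and *Nr4a3* but not *Nr4a2* of the same family. *Nr4a2* had 28, 16 and 23 reads in heterozygous libraries, 14 in KO 7 and 30 in KO 8. Its KO libraries thus lay on opposite sides of the heterozygous range.

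*Fos*, a subunit of the AP-1 transcription factor, was at 8.67, 9.14 and 6.46 CPM in heterozygous libraries and at 1.88 and 1.52 CPM in KO 7 and KO 8. The KO libraries were also below the WT libraries, at 2.89, 8.08 and 3.08 CPM. The log2 fold change over heterozygous was -2.23 (SE 0.58, edgeR adjusted p = 0.122). *Fos* passed in edgeR where only the 5 libraries entered the fit (edgeR adjusted p = 1.65e-05) and with the 8 ventral striatum libraries (0.00371). With no filter on low counts it also passed (0.0341). Other settings left it uncalled, with an adjusted p of 0.9999 from edgeR's quasi-likelihood alternative and 0.296 from the DESeq2 Wald test. Other scalings gave an edgeR adjusted p of 0.117 and 0.116. Leaving out heterozygous 4, 5 or 6 gave 0.350, 0.488 and 0.144 in edgeR. In the dorsal striatum *Fos* was at 15.3, 10.5 and 9.80 CPM in heterozygous and at 1.61 and 2.91 CPM in KO libraries (edgeR adjusted p = 0.00514), and in the hypothalamus at 16.9, 22.8 and 10.1 CPM and at 2.62 and 4.08 CPM (edgeR adjusted p = 0.00507). In the motor cortex it was at 12.1 and 13.4 CPM in heterozygous and at 5.16 and 9.77 CPM in KO libraries (log2 fold change -0.78), and was not called.

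*Npas4*, a transcription factor induced by calcium entry, was at 16.6, 13.1 and 22.0 CPM in heterozygous, at 8.71 and 4.55 CPM in KO and at 22.8, 19.1 and 20.8 CPM in WT libraries. Here the WT libraries sat with the heterozygous ones and both KO libraries stood below all 6 (log2 fold change -1.37, SE 0.38, edgeR adjusted p = 0.295). KO over WT was -1.65 (edgeR adjusted p = 0.0206). In all, 4 members, *Fos*, *Npas4*, *Arc* and *Btg2*, had both KO libraries below every heterozygous and WT library, against 386 of 13400 genes (2.88%).

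The other members overlapped more. *Nr4a1*, a nuclear receptor gene, was at 57.5, 59.3 and 32.6 CPM in heterozygous and at 28.5 and 25.6 CPM in KO libraries, inside the WT span of 24.6 to 60.3 CPM. *Egr1*, a zinc finger factor, was at 348, 372 and 250.1 CPM in heterozygous and at 276 and 143 CPM in KO libraries, so KO 7 was within the heterozygous range (log2 fold change -0.63, edgeR adjusted p = 1.00). The exception without KO 8 was *Fosl2*, an AP-1 subunit, with 17.4 CPM in KO 7 and 8.60 CPM in KO 8 against 8.86 to 17.8 CPM in heterozygous libraries.

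The summed level of the list also differed among WT libraries, at 391, 655 and 378 CPM, against 450 to 634 CPM in heterozygous libraries, 436 CPM in KO 7 and 255 CPM in KO 8. The KO over WT median was -0.50 and the heterozygous over WT median 0.25, from fits that share libraries with KO over heterozygous. KO over heterozygous medians were -1.52 in the dorsal striatum, -0.67 in the hypothalamus and -0.45 in the motor cortex, where heterozygous mouse 4 has no library here. These regions came from the same mice, so they do not replicate the ventral striatum independently. The time from handling to dissection is not in the labels, and its part in these levels was not tested.

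**Figure D2:**
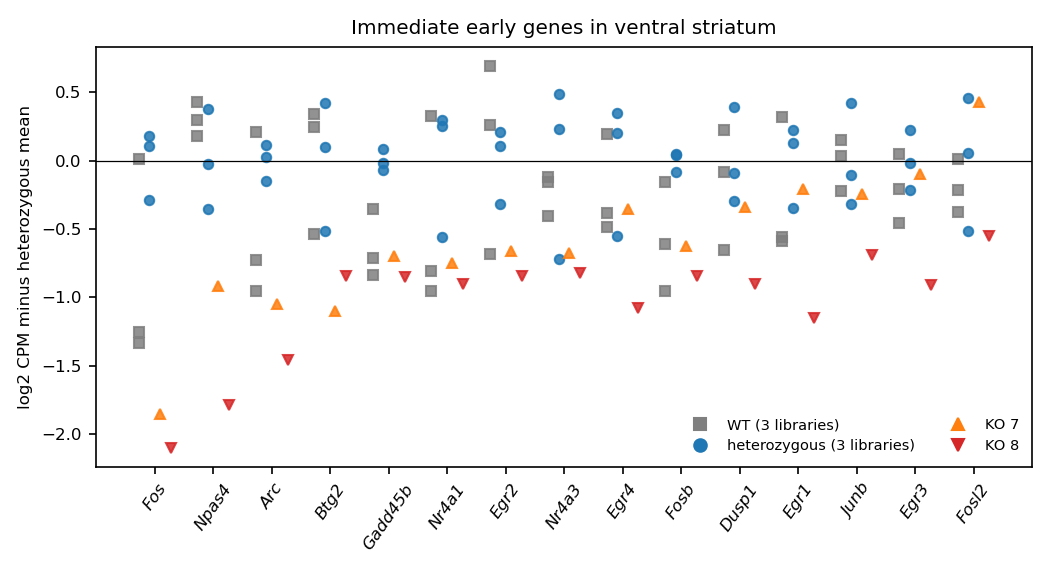
The 15 immediate early genes tested, as log2 CPM minus the mean of the 3 heterozygous libraries, with 1 symbol per library (grey squares WT, blue circles heterozygous, orange upward triangle KO 7, red downward triangle KO 8). KO 7 and KO 8 lie below the heterozygous libraries for 9 genes, while the WT libraries spread over both levels for *Fos*, *Arc* and *Nr4a1*.

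*Pmp22*, which encodes a myelin protein of peripheral nerve, and *Col1a1*, a collagen of fibroblasts, were called through 1 library. *Pmp22* was at 21.9, 27.4 and 27.0 CPM in heterozygous libraries, 23.8 CPM in KO 7 and 135 CPM in KO 8 (log2 fold change 1.64, SE 0.35, edgeR adjusted p = 0.00750). *Col1a1* was at 4.71, 7.84 and 5.51 CPM in heterozygous libraries, below all of these in KO 7 and at 51.9 CPM in KO 8 (2.21, SE 0.52, edgeR adjusted p = 0.0335). The fibrillar collagens *Col3a1* and *Col1a2* were likewise high in KO 8 alone, at 27.8 and 24.5 CPM against at most 5.49 CPM in the other 4 libraries, and neither was called. Without KO 8 the log2 fold change was -0.08 for *Pmp22* and -0.55 for *Col1a1*.

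Genes of Schwann cells, on a list added after these values had been seen, were split. *Pmp2* had 1, 0 and 0 reads in heterozygous libraries, 0 in KO 7 and 18 in KO 8, and *Prx* had 2, 1 and 3 reads, 0 and 10 in the same order. *Ncmap* had 0, 1 and 2 reads, 1 and 12, *Cldn19* had 1, 1 and 1, 0 and 7, and *Dhh* had 0, 0 and 0, 1 and 4. These 5 genes, below the filter on low counts and not tested, had most reads in KO 8. *Cdh19*, *Drp2*, *Sox10* and *Egr2*, genes that oligodendrocytes or neurons can also express, were not highest in KO 8, and *Gldn* had 11, 11 and 10 reads, 5 and 17. The mural and fibroblast list summed to 190 to 217 CPM in heterozygous libraries, 219 CPM in KO 7 and 327 CPM in KO 8, with 217 to 244 CPM in WT libraries. A piece of nerve or meninges in KO 8 and a change of these genes in KO tissue cannot be told apart from 1 library.

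KO 7 and KO 8 lay on opposite sides of the heterozygous range for 2862 genes (21.4%), more than the 2290 for which they lay on the same side. Genes of striatal spiny neurons were high in KO 7 and low in KO 8. Of 17 genes shared by spiny neurons, 16 had KO 7 above and KO 8 below the heterozygous range, against 10.3% of all genes, and the list summed to 6500 to 6969 CPM in heterozygous libraries, 8326 CPM in KO 7 and 4103 CPM in KO 8. The 3 WT libraries ranged from 5041 to 7645 CPM. In bulk tissue, fewer cells of a type and less RNA per cell cannot be told apart.

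*Drd1*, the dopamine D1 receptor of the direct pathway, was at 113, 106 and 109 CPM in heterozygous libraries, 159 CPM in KO 7 and 60.0 CPM in KO 8. *Penk* had the same order, with 1024, 1012 and 974.7 CPM, 1379 CPM and 599 CPM. Their log2 fold changes of KO over heterozygous, 0.00 and -0.02, were means of 2 libraries that pointed opposite ways. *Ptprm*, a receptor phosphatase on the indirect pathway list, differed from this, at 57.3, 60.1 and 60.8 CPM in heterozygous and 76.5 and 77.7 CPM in KO libraries (0.38, SE 0.13, edgeR adjusted p = 1.00).

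Genes of thalamus and other glutamate neurons went the opposite way to spiny neuron genes. *Slc17a6*, the vesicular glutamate transporter 2, was at 9.61, 26.6 and 22.5 CPM in heterozygous libraries, at 7.06 CPM in KO 7 and at 64.0 CPM in KO 8. Of 7 list genes, 4 had KO 8 above and KO 7 below the heterozygous range, against 11.1% of all genes. Over the list, the median of log2 CPM minus the heterozygous mean was -0.58 in KO 7 and 0.83 in KO 8. The part of dissection in the difference between KO 7 and KO 8 was not tested.

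**Figure D3:**
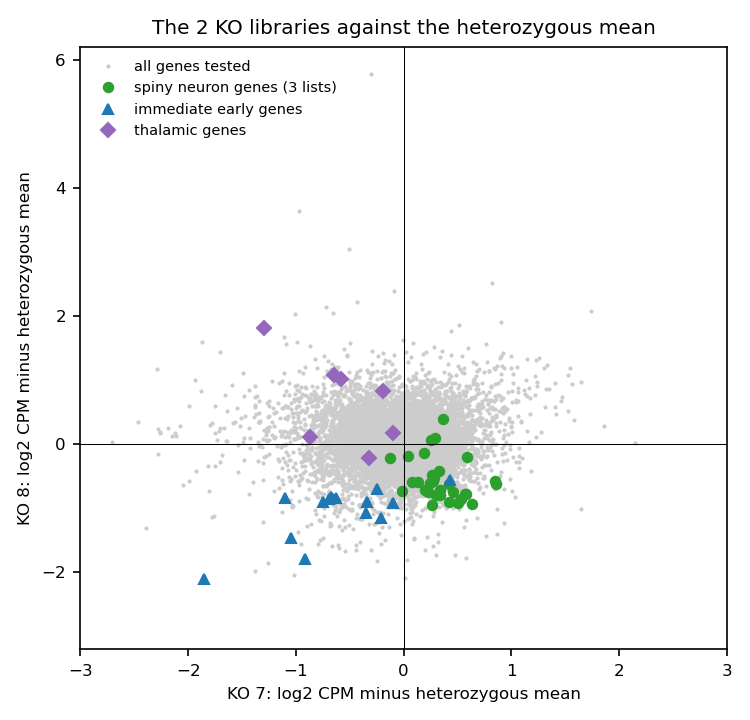
Each tested gene by its log2 CPM minus the heterozygous mean in KO 7 (horizontal) and in KO 8 (vertical), with grey dots for all genes and colours for 3 groups of lists. Spiny neuron genes lie mostly to the lower right, thalamic genes mostly to the upper left and immediate early genes mostly to the lower left.

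Both KO libraries lay above the heterozygous range for 1111 genes (8.29%) and below it for 1179 (8.80%). With 2 libraries against 3, order alone puts many genes outside the range. Neither share was above what order alone would give if the 5 libraries were interchangeable. These counts therefore describe the libraries, are not a test and show no excess of genes that differ between genotypes. With a gap of at least 0.5 in log2 CPM between the nearest libraries, 33 genes were above (0.246%) and 40 below (0.299%). Among genes at 5 CPM or more on average, *Ide*, the insulin-degrading enzyme, came after *Hdc* and *Pla2g4e* by the size of the gap. It was at 36.4, 37.6 and 34.5 CPM in heterozygous and at 56.7 and 71.9 CPM in KO libraries (log2 fold change 0.83, SE 0.22, edgeR adjusted p = 0.138). The WT library 3 was at 56.5 CPM, so KO and WT nearly met. *Ide* passed in edgeR where only the 5 libraries or the 8 ventral striatum libraries entered the fit, but not with the quasi-likelihood test (adjusted p = 0.679). Its KO over heterozygous difference was 0.95 in the dorsal striatum (edgeR adjusted p = 0.00656) and 1.00 in the hypothalamus (edgeR adjusted p = 0.00341). In the motor cortex it was 0.72 (edgeR adjusted p = 0.781). Next by gap came *Lama4*, *Elf1*, *Pnpt1*, *n-R5-8s1*, *Apbb1ip*, *Ankrd49* and *Nipal2*, with log2 fold changes of 0.53 to 0.90 and no call.

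Below the range, *Fos* and *Arc* had the widest gaps among genes at 5 CPM or more on average. *Gpsm1*, a regulator of G protein signalling, was at 23.4, 27.2 and 23.5 CPM in heterozygous and at 13.9 CPM in both KO libraries (log2 fold change -0.82, SE 0.21, edgeR adjusted p = 0.130). *Igfbp4*, which binds insulin-like growth factors, was at 29.8, 26.4 and 28.2 CPM in heterozygous and at 16.7 and 13.9 CPM in KO libraries (-0.88, SE 0.23, edgeR adjusted p = 0.165). *Igfbp4* was also lower in KO than in WT, by a log2 fold change of -1.08 (edgeR adjusted p = 0.00622), while in the hypothalamus it was higher in KO than in heterozygous libraries, by 1.42 (edgeR adjusted p = 0.00357). *Rprml*, *Nod1*, *Fam53a*, *Atp6v1c2*, *Npas4* and *Fosb* completed the 10, with log2 fold changes of -1.37 to -0.76.

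Of the histamine genes, 8 were tested and *Hdc* alone was called. *Hrh3*, the presynaptic and spiny neuron histamine receptor and the most abundant of the 8 by CPM, was at 105, 94.8 and 95.0 CPM in heterozygous libraries and at 95.6 and 67.3 CPM in KO 7 and KO 8 (log2 fold change -0.27, SE 0.17, edgeR adjusted p = 1.00). KO 7 was inside the heterozygous range. *Hrh1* and *Hrh2*, receptors coupled to other G proteins, were at 3.53 and 6.58 CPM and at 2.35 and 5.06 CPM in KO 7 and KO 8, and both overlapped the heterozygous libraries.

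Genes of oligodendrocytes and myelin were slightly higher in KO, without a call. Of 30 tested, 28 had a positive log2 fold change, against 51.6% of all genes. Without KO 8, 6 of the 30 were lower. The median was 0.21 (0.15 without KO 8), against 0.007 for all genes. At an unadjusted p under 0.05, 4 were higher, against 1.7% of all genes. For 9, both KO libraries lay above the heterozygous range (30.0%), against 8.29% of all genes. *Ermn*, a cytoskeletal protein of myelin, was at 47.5, 48.3 and 56.7 CPM in heterozygous and 69.4 and 64.3 CPM in KO libraries (0.40, SE 0.18, edgeR adjusted p = 1.00). The WT libraries were at 68.5, 51.2 and 88.1 CPM, on both sides of KO. For 2 of the 30 genes, *Mal* and *Mog*, both KO libraries were above all 6 others, against 2.68% of all genes. The list summed to 5949 and 5945 CPM in KO 7 and KO 8, within the WT libraries at 5646, 4290 and 6310 CPM. Heterozygous libraries 4, 5 and 6 were at 4403, 4691 and 5701 CPM, so heterozygous 6 was close to the KO libraries. The median of the list was -0.15 for heterozygous over WT and 0.13 for KO over WT, from fits that share libraries with KO over heterozygous.

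No gene was called in the lists that follow. Dopamine and serotonin genes had a median of -0.08, with 6 of 20 below the heterozygous range, against 8.80% of all genes, and 2 of them, the dopamine transporter *Slc6a3* and the serotonin receptor *Htr6*, below all heterozygous and WT libraries (2.88% of all genes). *Slc6a3* was low throughout, at 0.754 to 1.68 CPM in heterozygous and 1.03 to 2.42 CPM in WT libraries, at 0.235 CPM in KO 7 and with no read in KO 8. Genes of the mitochondrial genome followed the spiny neuron genes, with KO 7 above and KO 8 below for 10 of 12 (10.3% of all genes), and cortical excitatory neuron genes went the other way for 6 of 8 (11.1% of all genes). Accumbens and tubercle genes had a median of 0.36, with 6 higher and 3 lower in KO. The list summed to 1351, 1258 and 1374 CPM in heterozygous libraries, 1416 CPM in KO 7 and 1002 CPM in KO 8. For *Wfs1* and *Crym*, KO 7 lay above and KO 8 below the heterozygous range (10.3% of all genes), and 1 gene had the opposite split (11.1% of all genes). The largest rise was that of *Stard5*, a sterol transfer protein gene (6.98, 4.96 and 6.46 CPM in heterozygous, 18.4 and 8.86 CPM in KO libraries, log2 fold change 1.14, edgeR adjusted p = 1.00). *Cartpt*, a neuropeptide precursor, was also higher (0.85, edgeR adjusted p = 1.00), but its KO 8 level of 10.1 CPM was within the heterozygous range. Microglia genes had a median of -0.14, with 5 of 12 below the range, against 8.80% of all genes, among them the complement gene *C1qb* (-0.38, edgeR adjusted p = 1.00). *Sgk1*, a kinase gene that glucocorticoids induce, was at 62.8, 79.4 and 36.9 CPM in heterozygous and at 34.6 and 30.4 CPM in KO libraries (-0.88, SE 0.33, edgeR adjusted p = 1.00).

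Choroid plexus RNA varied among heterozygous libraries. *Ttr*, the transthyretin gene of the choroid plexus, was at 1.13, 19.3 and 61.8 CPM in heterozygous libraries 4, 5 and 6 and at 0.942 and 2.28 CPM in KO 7 and KO 8. This gave a log2 fold change of -4.07 (SE 1.58, edgeR adjusted p = 1.00) and follows heterozygous 5 and 6. Of 9 choroid plexus genes tested, 8 were lower in KO, against 6481 of all 13400 genes, and none was called.

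**Figure D4:**
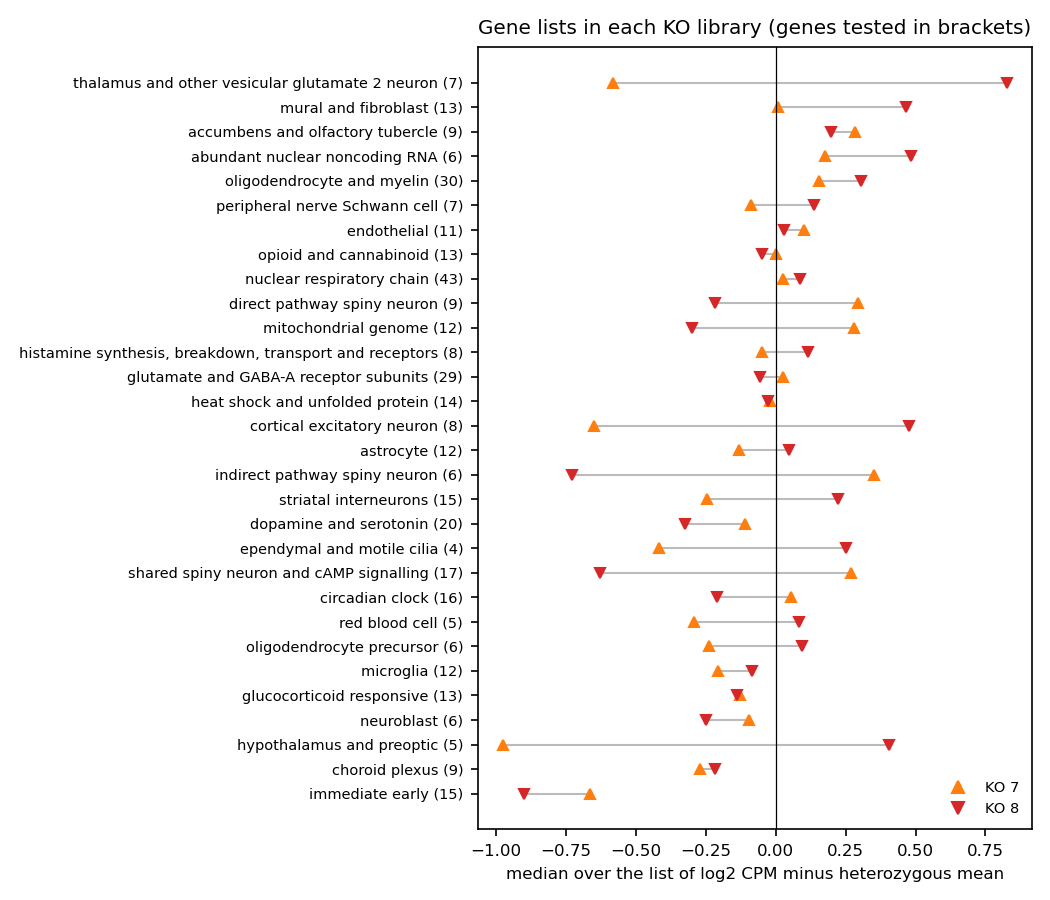
The median over each gene list of log2 CPM minus the heterozygous mean in KO 7 (orange) and in KO 8 (red), with lists ordered by their median log2 fold change. Immediate early genes were at -0.66 in KO 7 and -0.90 in KO 8, while spiny neuron and thalamic lists have their KO 7 and KO 8 points on opposite sides of 0.

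The difference between KO and heterozygous in the ventral striatum was set against that in the dorsal striatum of the same mice, in 1 contrast. No gene passed in edgeR, 0 of 13400 by either of its tests, with 517 at an unadjusted p under 0.05 (3.86%) by the likelihood ratio test. The lowest adjusted p was 0.265. The ventral minus dorsal difference was 0.55 for *Hdc* (SE 0.39), 0.09 for *Pla2g4e* (SE 0.28) and 0.38 for *Arc* (SE 0.39), each with an edgeR adjusted p of 1.00. Intervals of that width do not show that the regions responded alike. The count of calls was 20 without mouse 7 and 48 without mouse 8.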

How the data were processed

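The series comprises 28 RNA-seq libraries from 4 brain regions and 3 *Hdc* genotypes. Per the methods and the submitters' processing notes, single-end reads were trimmed with Trimmomatic 0.32, rRNA reads were removed with Bowtie2 2.2.3, the rest were aligned to GRCm38 with STAR 2.3.1z8, SAMtools 0.1.19 sorted them, and HTSeq 0.6.1p1 counted reads on exons in union mode. The authors deposited raw counts per gene, with no normalization. A strand setting is not given in the sources used here, so overlapping and antisense genes cannot be told apart. cDNA was amplified from little RNA and carries no molecular identifiers.

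Groups come from the labels. Symbols come from GENCODE M21, which named 28842 of the 29878 genes. Differences were tested in R 4.3.3 with edgeR 4.0.16 (glmFit and glmLRT, as in the study's methods), with TMM normalization and a mean for each of 12 groups fitted to all 28 libraries, and p-values were Benjamini-Hochberg adjusted over 13400 genes. Log2 CPM used a prior count of 2. On simulated counts the script recovered the changes set, but the likelihood ratio test called more unchanged genes than its threshold allows while the quasi-likelihood test did not, so calls made by the first test alone are less certain. Alternatives were that quasi-likelihood test, DESeq2 1.42.0, other scalings, filters and subsets of libraries, and each library left out.

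Genes named were *Hdc*, the genes called, the 10 in each direction with the widest gap between KO and heterozygous libraries at a mean of at least 5 CPM, list members and the 10 genes with the smallest p between regions. The comparison, its members and the gene lists were chosen with earlier results of these data known. Promoter sequences are from RefSeq, and *Arc* is not among those used. A called gene and a list gene are not reported here by name. No pair of libraries looked like the same library counted again.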

Additional observations from a re-analysis of the deposited data

How the results depend on the processing

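The 7 calls of edgeR's likelihood ratio test were 1 with the quasi-likelihood test (1 higher and 0 lower, with 413 genes at an unadjusted p under 0.05) and 2 with DESeq2 (*Pla2g4e* among them, 2 higher and 0 lower, with 177). RLE factors, library size alone and a filter over 28 libraries each called the same 7 genes. No filter gave 9 calls, 2 of them lower. The 5 libraries alone gave 11 calls, 6 of them lower, of which 5 were among the 7, and the 8 ventral striatum libraries gave 7, 3 of them lower, of which 4 were among the 7. Leaving out each library gave 0 to 37 calls, 0 to 26 higher and 0 to 11 lower, and 0 to 9 calls in the gene lists against 3. It was 37 without KO 7, 0 without KO 8 (738 at an unadjusted p under 0.05) and 2 (*Pla2g4e* among them) without heterozygous 4, 5 or 6. Fewer samples remained in each, and a lone KO library was assumed to vary like the other groups. Genes outside the heterozygous range numbered 73 with a gap of at least 0.5, 33 above and 40 below, and 3602 to 8103 (1780 to 4198 above, 1822 to 3957 below) as each library was left out, an alternative chosen after seeing the data, where fewer heterozygous libraries set the range or 1 KO library alone had to lie outside it. Over the libraries left out, the log2 fold change ranged from -0.0836 to 2.41 for *Pmp22*, -0.55 to 3.13 for *Col1a1*, -0.46 to 2.32 for *Col1a2*, -1.32 to 3.92 for *Col3a1*, -0.87 to 0.54 for *Drd1*, -0.74 to 0.46 for *Penk*, -1.45 to 1.72 for *Slc17a6*, -0.59 to 0.60 for *Nr4a2* and -0.0147 to 0.45 for *Sox1ot*. The *Drd1* value was -0.0442 with library size alone. *Hdc* stayed between 1.11 and 1.27, *Pla2g4e* between 0.93 and 1.11, *Gpr50* between 2.24 and 2.73 and *Arc* between -1.49 and -1.06 under every alternative, with adjusted p up to 0.679, 0.197, 0.758 and 0.569. The ventral minus dorsal contrast called 0 genes, 20 without mouse 7 and 48 without mouse 8. KO and heterozygous groups share no replicate number, so no paired analysis was possible for KO versus heterozygous. For the contrast between regions, a replicate block on the mouse number called 0 genes (525 at an unadjusted p under 0.05). Deviations of a mouse's ventral and dorsal libraries from their group means correlated at 0.0348 to 0.0999 across genes. In groups of 2 or 3 libraries such correlations cannot decide whether the numbers pair the libraries, and the 2 KO mice share a value by construction. With 2 KO libraries at these depths, genes near 1 CPM rest on a few reads.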
